A study of Mus musculus with 60 samples.

Results

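Mouse embryos made by nuclear transfer from cumulus cells (NTC) were followed from the 2-cell to the 4-cell stage in 6 of the 60 libraries of a single-embryo RNA-seq series, 3 libraries at each stage, over all genes of one RPKM table. For these embryos the nucleus of a cumulus cell, a somatic cell that surrounds the oocyte, was injected into an enucleated oocyte from a BDF1 female. The reconstructed oocytes were activated with SrCl2 in the presence of cytochalasin B and Scriptaid, an inhibitor of histone deacetylases, and cultured in G1 medium up to the 4-cell stage. Embryos were picked by their morphology, so the data describe embryos that looked normal at their stage. Each library is 1 whole embryo and holds the RNA of all its cells.

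The transition was set beside the same stages of fertilized embryos collected without culture from C57BL/6 females mated with DBA2 males (in vivo, strain BDF1 in the labels) and of embryos made in the same way as NTC with nuclei of BDF1 mouse embryonic fibroblasts (NTM), again 3 libraries at each stage. All NTC and NTM embryos were made from enucleated oocytes, went through Scriptaid and were cultured, and none of this holds for in vivo embryos. The oocytes also came from BDF1 females for nuclear transfer and from C57BL/6 females in vivo. The cumulus cells came from females, and the sex of the in vivo embryos is not given. Nuclear transfer, drug, culture, oocyte strain and embryo sex therefore cannot be told apart in any comparison with in vivo embryos. The fibroblasts came from fetuses, were passaged and were kept in low serum before transfer. The cumulus cells came from adult females and were stored cold until use. The sex of the fibroblasts is not given. Cell type, donor age, cell culture and sex therefore cannot be told apart in the comparison with NTM embryos.

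The mouse oocyte stores mRNA that it does not replace while transcription is silent. In fertilized embryos most of this maternal mRNA is deadenylated and destroyed during the first divisions, and the embryo's own genome is switched on in a minor wave in the zygote and a major wave in the 2-cell embryo. Genes of the 2-cell burst, such as the Dux and Zscan4 families, are then silenced again, while genes for ribosomes, proteasomes and mitochondria rise. In a cloned embryo the nucleus that has to do this starts from the expression programme of a differentiated cell.

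Reads assigned to genes numbered 5294167 to 11955609 per library at the NTC 2-cell stage and 9543818 to 11846097 at the NTC 4-cell stage. A transcript of 2000 nt with 3 reads corresponds to 0.125 to 0.283 RPKM in the 2-cell and 0.127 to 0.157 RPKM in the 4-cell libraries, and lower values were not resolved at this depth. Between 12333 and 13520 genes were above 0 in the 2-cell and between 10824 and 11929 in the 4-cell libraries. Across tested genes the log2(RPKM + 1) values of libraries of one stage correlated at 0.804 to 0.845, and those of different stages at 0.394 to 0.446. Transcripts of the mitochondrial genome took 8.77% to 19% of the reads at the 2-cell stage and 31.6% to 34.7% at the 4-cell stage. RPKM is a share of the library, so less of one RNA and more of all others cannot be told apart, nor can fewer cells from less RNA per cell. With the mitochondrial genes left out of the library totals, the median change of all genes moved from -0.2 to 0.06 on the log2 scale, and changes below are to be read against -0.2.

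The in vivo 4-cell libraries stood apart from the rest of the series. In them 241 genes were, in each of the 3 libraries, at 10 RPKM or more and at least 4 times above the highest of the other 51 embryo libraries. The same count lay between 0 and 5 in each of the other 17 embryo groups and was 0 in both NTC groups. Mt1, a metallothionein, was at 12698 to 16078 RPKM in the in vivo 4-cell and at 41.7 to 53.3 RPKM in the in vivo 8-cell libraries. mt-Atp8, a small mitochondrial gene that overlaps mt-Atp6, was at 168 to 212 RPKM in the in vivo 4-cell libraries and at 12.7 to 18.2 RPKM at the in vivo 8-cell stage, whereas mt-Co2 was at 2.15 to 5.78 RPKM and then at 61.2 to 80.1 RPKM. Both genes lay far below mt-Co1 in the same libraries, which was at 3801 to 5052 RPKM and then at 16378 to 30673 RPKM. Why genes of the mitochondrial genome differ so much in level was not tested, so single values of mt-Atp8 and mt-Co2 are uncertain. The part of how the in vivo 4-cell libraries were made in these patterns was not tested. The counts of the comparison with in vivo embryos, and the differences of most genes named in it, are therefore also given with the in vivo 8-cell libraries in place of the 4-cell ones, a comparison in which the stages differ.

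Of 12324 genes tested with limma on log2(RPKM + 1), 4505 changed from the NTC 2-cell to the NTC 4-cell stage at an adjusted p under 0.05 and a log2 change of 1 or more in size. Those that rose numbered 2027, or 16.4% of the genes tested, and those that fell 2478, or 20.1%. With mitochondrial genes left out 2442 rose and 2171 fell. Values of the 2 stages did not overlap for 50.5% of the genes tested. The gene groups below were described by how many members passed this test, against these shares. Some genes are named outside the fixed rule, having been picked with their values in view. Members of multigene families (Obox, Tcl1b, Nlrp, Tdpoz, Zscan4, Usp17l) or genes with many processed pseudogenes (ribosomal proteins, Pou5f1) are uncertain where reads could be split between copies.

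**Figure D1:**
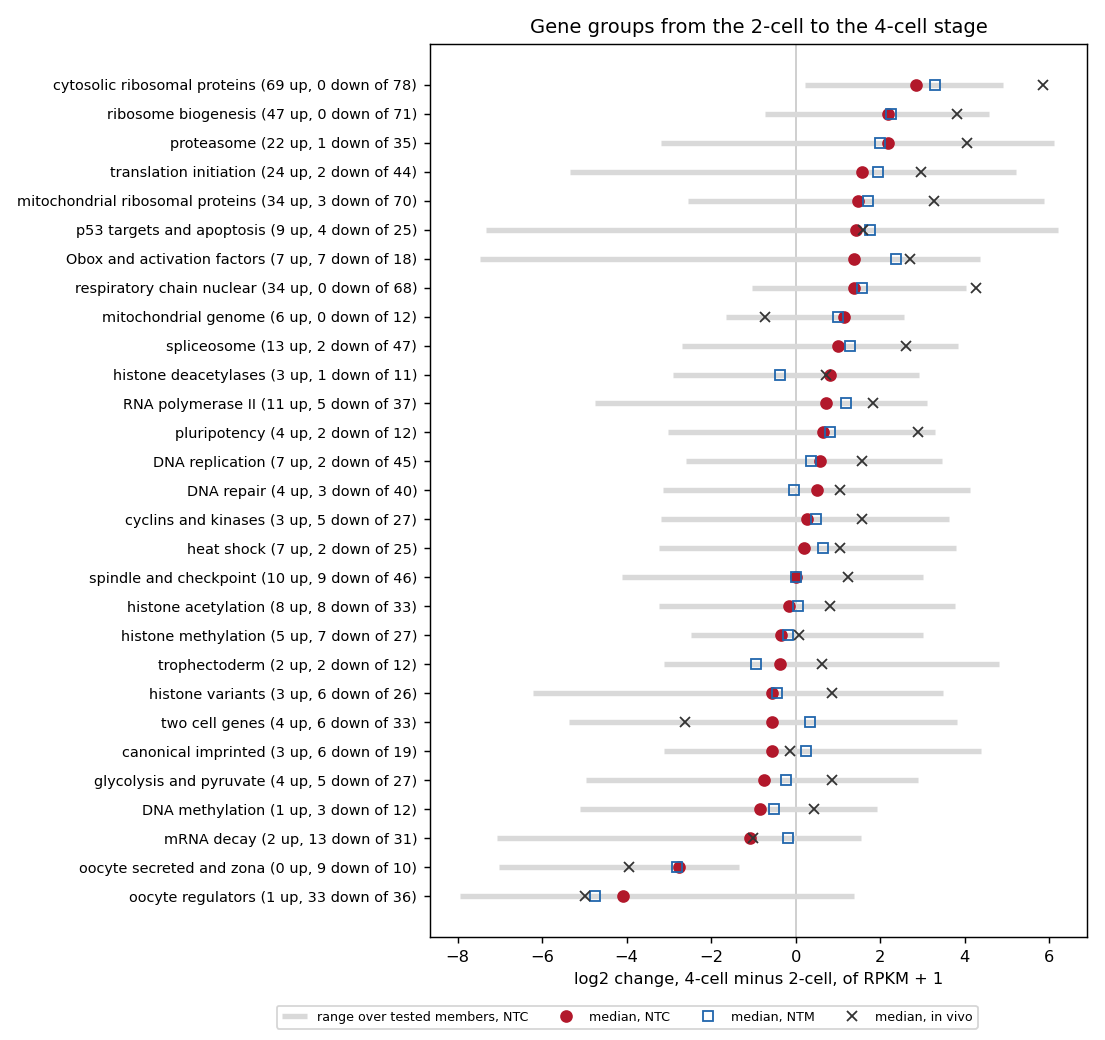
Log2 change of RPKM + 1 from the 2-cell to the 4-cell stage for gene groups with at least 10 tested members: the grey bar spans the NTC members, symbols give the median change in NTC, NTM and in vivo embryos, and the labels count NTC members that rose and fell. Oocyte regulators lie lowest with an NTC median of -4.09 and cytosolic ribosomal proteins highest with 2.84. Each median is over the members tested in that embryo type.

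Oocyte genes fell almost throughout. Of the 36 tested of 38 oocyte regulators, 33 fell and 1 rose, with a median log2 change of -4.09. Bcl2l10, a BCL2 family protein abundant in oocytes, was at 6850, 8350 and 6756 RPKM in the 2-cell libraries and at 50.8, 14.9 and 111 RPKM in the 4-cell libraries. Every 4-cell value lay far below every 2-cell value, and the log2 change was -7.33 ± 0.6 (SE, n = 3 and 3; limma adjusted p = 0.000148).

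Rfpl4, an oocyte RING finger protein, fell by 7.95 on the log2 scale, from 1768, 1713 and 1600 RPKM to 10.3, 7.05 and 2.56 RPKM. Nlrp9a, of the NLRP family, fell by 7.33 from 149 to 256 RPKM to at most 0.751 RPKM. Wee2, an oocyte kinase that holds back cell cycle entry, was at 340 to 433 RPKM and then at 0.434 to 19.1 RPKM. The member that rose was Taf4b, a subunit of the TFIID complex of germ cells, from 23.4, 34.7 and 45.9 RPKM to 112, 70.5 and 86.5 RPKM, with a log2 change of 1.37 ± 0.39 and an adjusted p of 0.0252.

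Of the Tcl1b family 3 genes were among the 8 named genes with the largest falls. Tcl1b2 went from 2902, 1553 and 2122 RPKM to 3.42, 3.63 and 32.4 RPKM, Tcl1b3 from 686 to 1107 RPKM to at most 23.6 RPKM, and Tcl1b5 from 126 to 206 RPKM to at most 0.504 RPKM. Their log2 changes were -7.91, -8.09 and -7.18. The third 4-cell library kept more of Tcl1b2 and Tcl1b3 than the other two.

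Of the 10 genes for zona glycoproteins and secreted oocyte factors, 9 fell, with a median of -2.77. Oosp3, an oocyte secreted protein, went from 209, 165 and 124 RPKM to 0.127, 0.103 and 0.593 RPKM, and Bmp15, a growth factor of the oocyte, from 603 to 1115 RPKM to between 1.85 and 24.1 RPKM. Zp3, which encodes a coat glycoprotein, was at 23.4, 62 and 20 RPKM and then at 16.7, 9.7 and 9.73 RPKM and did not pass the test (adjusted p = 0.0802).

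Of 9 genes of the subcortical maternal complex, a protein lattice under the oocyte membrane, 8 were tested and 7 fell, with a median of -3.2. Zbed3 went from 1769, 1947 and 2531 RPKM to 11, 4.9 and 27 RPKM, a log2 change of -7.36 ± 0.53. Cfl1, which encodes the actin-binding protein cofilin and is used by most cells, was at 573 to 719 RPKM and then at 368 to 679 RPKM, and its ranges overlapped.

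Genes of the machinery that removes mRNA fell more often than they rose. Of 31 tested genes for deadenylation, decapping and decay, 13 fell and 2 rose, with a median of -1.07. Btg4, the adaptor that brings the CCR4-NOT deadenylase to maternal mRNA, was at 5764, 4843 and 5046 RPKM at the 2-cell and at 22.3, 27 and 87.6 RPKM at the 4-cell stage. No 4-cell embryo came near the 2-cell level, and the log2 change was -7.07 ± 0.47 (adjusted p = 7.91e-05).

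Cnot6l and Cnot7, catalytic subunits of CCR4-NOT, fell by 4.21 and 3.54 on the log2 scale. Tut4, a terminal uridylyltransferase, rose from 2.4, 0.684 and 0.935 RPKM to 6.43, 6.69 and 3.73 RPKM, and Ythdf2, a reader of methylated mRNA, from 28.1 to 38.9 RPKM to between 57.6 and 91.4 RPKM. Both risers passed the test narrowly, at adjusted p = 0.0439 and 0.0396.

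**Figure D2:**
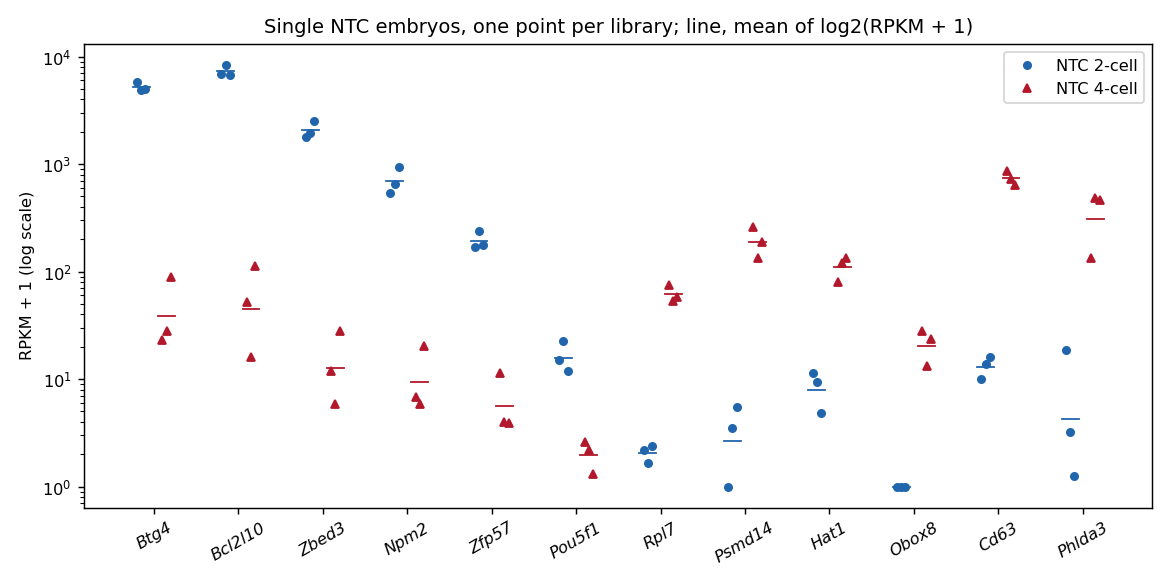
RPKM + 1 on a log scale for named genes in the 3 NTC 2-cell libraries (circles) and the 3 NTC 4-cell libraries (triangles), with a line at the mean of log2(RPKM + 1). The 2 stages do not overlap for any gene shown, and Obox8 is at 0 RPKM in every 2-cell library.

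Genes of the 2-cell burst did not move as a group. Of 46 in the table, 33 were tested, 6 fell and 4 rose, with a median of -0.57. Duxf3, the gene of the transcription factor that opens the burst, was listed at 0.0314, 0.031 and 0 RPKM in the NTC 2-cell libraries and was at 6.93 to 63.1 RPKM in the in vivo 2-cell libraries. Zscan4d, a target of that factor, was at 2.29, 0.292 and 0 RPKM in NTC and at 11.1, 168 and 355 RPKM in vivo at the 2-cell stage. Duxf3 and Zscan4d were at 0 in all NTC 4-cell libraries and were too low in NTC for the test of the transition. Zscan4c overlapped at the 2-cell stage, with 15.1, 0.146 and 1.23 RPKM in NTC and 5.33, 42.8 and 271 RPKM in vivo. The differences from in vivo of Zscan4c and Zscan4f did not pass (limma adjusted p = 0.219 and 0.198). Zfp352 was at 205, 168 and 108 RPKM in NTC and at 12, 6.93 and 395 RPKM in vivo at that stage.

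Among members that were present at the NTC 2-cell stage, AA792892 went from 36.5, 43.2 and 68 RPKM to 0.615, 0 and 0 RPKM, and Tcstv1 from 26.9 to 58.6 RPKM to between 0.0698 and 7.97 RPKM. Calcoco2, an autophagy receptor, rose instead, from 49.8, 7.59 and 20.6 RPKM to 563, 183 and 250 RPKM, a log2 change of 3.81 ± 0.67. Gm8300 and Ubtfl1 rose by 1.46 and 2.26. The second NTC 4-cell library stood out for some members, with 19.4 RPKM of Tcstv3 and 85.1 RPKM of Gm20767 where the other 4-cell libraries were at 0.

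Homeobox and nuclear factors tied to genome activation split into both directions, with 7 of 18 tested members rising and 7 falling. The maternal members fell, as in Obox5, which went from 1648, 1450 and 1649 RPKM to 6.18, 10.3 and 7.76 RPKM, a change of -7.47 ± 0.31. The log2 changes of Obox1 and Obox7 were -6.28 and -6.47. Obox8 was at 0 RPKM in every 2-cell library and at 26.9, 12.2 and 22.5 RPKM in the 4-cell libraries, so that its log2 change of 4.36 depends on the pseudocount. Obox6 rose from 50, 12 and 19 RPKM to 789, 349 and 390 RPKM.

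Dppa2 and Dppa4, chromatin proteins that act before Dux, rose by 1.75 and 2.84. Gabpa, an ETS family transcription factor, rose from 14.5, 11.9 and 7.87 RPKM to 80.8, 46.6 and 45.1 RPKM (log2 change 2.22 ± 0.43). Nfya, the DNA-binding subunit of the CCAAT factor NF-Y, fell by 2.46, whereas its partner Nfyb rose by 2.15.

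Pluripotency factors were mixed. Of 20, 12 were tested, 4 rose and 2 fell. Pou5f1, which encodes OCT4, went from 13.9, 21.5 and 10.8 RPKM to 1.58, 1.2 and 0.304 RPKM, a log2 change of -3.02 ± 0.51 (adjusted p = 0.00231). All 3 4-cell embryos lay below the lowest 2-cell embryo. Its in vivo change was -0.55, and the difference between the changes did not pass the test.

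Klf2, a Krüppel-like factor of the naive state, rose from 1.47, 1.45 and 1.74 RPKM to 43.7, 20.7 and 15.5 RPKM. Fgf4 was at 0 RPKM in every 2-cell library and at 40.7, 1.64 and 4.47 RPKM in the 4-cell ones. Nanog was at 0.151 RPKM or less in all 6 libraries and Sox2 at 0. Dppa3, a maternal protein that protects DNA methylation, was at 25.7, 22.8 and 39 RPKM and then at 47.9, 17.8 and 28.4 RPKM, which overlap.

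Of 12 trophectoderm genes tested, 2 rose and 2 fell, near the shares of all genes tested (16.4% up, 20.1% down). Hand1, a transcription factor of the trophoblast, was at 0, 0.88 and 0 RPKM and then at 101, 11.6 and 32.2 RPKM. Ascl2, an imprinted trophoblast factor, went from 3.57, 24.9 and 9.96 RPKM to 0.065, 0.838 and 0 RPKM. Among 6 tested primitive endoderm genes Gata6 rose from 0, 2.54 and 1.89 RPKM to 9.97, 5.66 and 8.49 RPKM, and Dab2, an endocytic adaptor, went from 23.9 to 28.3 RPKM to at most 1.86 RPKM.

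Genes for making protein rose together. Of 83 cytosolic ribosomal protein genes 78 were tested, 69 rose and none fell, with changes between 0.22 and 4.91 and a median of 2.84. Their summed level was 2204 to 2966 RPKM in the 2-cell and 13919 to 15088 RPKM in the 4-cell libraries. Rpl7 was at 1.17, 0.654 and 1.41 RPKM and then at 74.7, 52.8 and 56.6 RPKM, a log2 change of 4.91 ± 0.42 (adjusted p = 0.000159). Rpl4, whose level was already 110 to 298 RPKM at the 2-cell stage, rose to between 1308 and 1517 RPKM.

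Ribosomal protein genes carry a run of pyrimidines at the start of the transcript, the terminal oligopyrimidine (TOP) motif through which their translation is set. The 5 risers of the list with the largest change and such a run of at least 8 C or T within 5 bases of the start are shown, from 15 bases before to 15 bases after the start, with the run in capitals (RefSeq, GRCm38.p6, transcript strand, 5′ to 3′).
Rpl14, chr9:120571502-120571531, plus strand: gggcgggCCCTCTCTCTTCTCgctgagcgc
Rps26, chr10:128626492-128626521, minus strand: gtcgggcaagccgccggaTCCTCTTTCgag
Rps9, chr7:3704026-3704055, plus strand: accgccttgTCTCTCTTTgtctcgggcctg
Rps27, chr3:90213634-90213663, minus strand: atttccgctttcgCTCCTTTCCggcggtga
Rps6, chr4:86857353-86857382, minus strand: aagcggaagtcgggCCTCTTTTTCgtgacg

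Such a run was found in 22 of the 62 ribosomal protein genes with a promoter entry (35.5%) and in 9.3% of all 27025 genes of the promoter table. It was in 9.79% of the promoters of genes that rose and in 9.36% of those that fell. The 5 genes shown rose by 4.51 (Rpl14), 4.31 (Rps26), 4.26 (Rps9), 3.74 (Rps27) and 3.38 (Rps6) on the log2 scale. Rpl14 was at 29.4, 42.1 and 38.4 RPKM in the 2-cell and at 891, 760 and 899 RPKM in the 4-cell libraries.

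A second short sequence differed in share between the directions. The ETS family core CCGGAAG, searched on both strands from 250 bases before to 50 after the start, was in 28.1% of the 1522 promoters of genes that rose, in 13% of the 1848 of genes that fell, and in 18.8% of the 8891 of genes tested. It was in 40.3% of cytosolic ribosomal protein genes and in 4.55% of 44 oocyte genes. The 5 named risers shown hold it, and are printed as 30 bases around it, with the match in capitals as read on the transcript strand, where CTTCCGG is the match to the other strand.
Eif3m, chr2:105017064-105017093, minus strand: ctgtggctgacCCGGAAGcggttgtgcgta
Utp3, chr5:88554227-88554256, plus strand: ccggcttcacgCCGGAAGtcaccagagaga
Hat1, chr2:71389222-71389251, plus strand: ccttgcggtcaCTTCCGGcccgggagcgcg
Gins3, chr8:95633375-95633404, plus strand: ctgcaggaggaCTTCCGGccgactcatcca
Cdc20, chr4:118437409-118437438, minus strand: gagatttgctcCCGGAAGacccggccctct

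By contrast the TATA box letters TATAAA were in 7.36% of promoters of risers and 7.41% of those of genes that fell, and CCAAT, the letters bound by NF-Y, in 36.8% and 37.9%. A match is a description of the letters and says nothing of a factor's binding.

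Other genes of the translation machinery rose more often than they fell. Of 71 ribosome biogenesis genes, all tested, 47 rose and none fell (median 2.19). Utp3, a processing factor of the small subunit, went from 4.42, 4.62 and 10.3 RPKM to 207, 156 and 144 RPKM, a change of 4.58 ± 0.43. Of 44 translation initiation genes 24 rose and 2 fell. Eif3m, a subunit of the initiation factor eIF3, went from 0.0327, 3.91 and 8.75 RPKM to 133, 108 and 171 RPKM, whereas Eif4e3, a cap-binding protein, fell from 163, 167 and 117 RPKM to 11, 0.302 and 2.09 RPKM.

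Protein turnover and folding followed. Of 35 tested proteasome genes 22 rose and 1 fell (median 2.18). Psmd14, the deubiquitinase of the proteasome lid, was at 0, 2.52 and 4.49 RPKM and then at 258, 133 and 188 RPKM, the third largest rise of the named genes at 6.12 ± 0.65. Psmd10, an assembly chaperone on the X chromosome, fell from 27.9, 28.8 and 25.1 RPKM to 3.57, 5.46 and 0 RPKM. All 8 genes of the CCT chaperonin were tested and 6 rose, led by Cct4 from 0.826, 3.07 and 6.38 RPKM to 76.8, 99.1 and 106 RPKM.

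Heat shock genes gave 7 risers and 2 fallers among 25. Hspa4 rose by 3.79, and Hsp90aa1 from 180 to 293 RPKM to between 946 and 986 RPKM. Hspa2, a germ cell member of the family, went from 22.8, 3.12 and 11.8 RPKM to 0.0416, 0 and 0.426 RPKM.

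Part of the nuclear genes for mitochondria and part of the mitochondrial genome rose. Of 70 tested mitochondrial ribosomal protein genes 34 rose and 3 fell, and of 68 nuclear respiratory chain genes 34 rose and none fell. Mrpl36 went from 7.53, 2.51 and 0.21 RPKM to 237, 207 and 146 RPKM, and Uqcrc1, a core subunit of complex III, from 0, 1.66 and 0.0457 RPKM to 9.3, 32.4 and 35.2 RPKM. Mrpl48 fell by 2.54.

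Of 12 tested protein genes of the mitochondrial genome, 6 rose and none fell; with median-ratio scaling 3 rose. The largest rise was that of mt-Nd6, the 1 protein gene on the light strand, from 836, 356 and 645 RPKM to 3624, 2805 and 3982 RPKM (2.57 ± 0.32). mt-Nd2 rose by 2 and mt-Cytb by 1.24. mt-Co1, a core subunit of complex IV, was at 46666, 22128 and 26361 RPKM and then at 26185, 39569 and 29203 RPKM, which overlap. The first 2-cell library, with 19% mitochondrial reads, held the highest 2-cell value of mt-Nd6, which was below every 4-cell value.

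**Figure D3:**
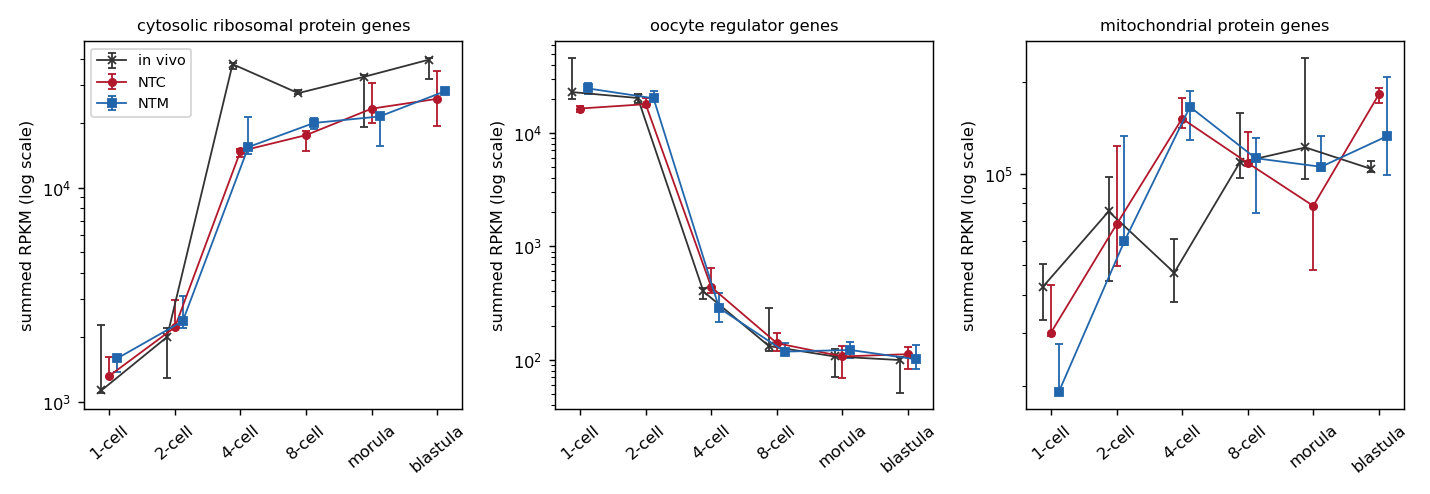
Summed RPKM on a log scale of cytosolic ribosomal protein genes, oocyte regulator genes and mitochondrial protein genes by stage; symbols are the median and bars the range of 3 libraries of in vivo, NTC and NTM embryos. From 2-cell to 4-cell embryos ribosomal protein genes rose and oocyte regulators fell in all 3 embryo types, and the in vivo 4-cell libraries are highest for the former and lowest for mitochondrial genes at that stage.

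Transcription and splicing genes rose in part. Of 47 tested spliceosome genes 13 rose and 2 fell. Lsm4 rose by 3.84, and Snrnp27, a component of the tri-snRNP, fell from 29.7, 29.7 and 29.1 RPKM to 4.16, 3.91 and 3.19 RPKM. Of 37 genes for RNA polymerase II and its general factors 11 rose and 5 fell. Tbpl2, the TBP paralog of the oocyte, was at 39.7, 15.5 and 28.4 RPKM and then at 0 RPKM in every 4-cell library.

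Cell cycle genes went both ways, near the shares of all genes tested (16.4% up, 20.1% down). Of 27 cyclins, kinases and their regulators 3 rose and 5 fell. Of 46 spindle and checkpoint genes 10 rose and 9 fell. The median of the spindle and checkpoint genes was 0.01, and it was -0.13 with median-ratio scaling and 0.34 on nuclear reads. Cdk4, a kinase of the G1 phase, rose from 0.13, 1.39 and 2.09 RPKM to 23.2, 23.3 and 26.6 RPKM. Cdc20, an activator of the anaphase-promoting complex, rose from 50.1, 37.4 and 17.6 RPKM to 348, 227 and 240 RPKM. Cdc25b, the phosphatase that starts meiotic maturation, went from 5.79, 20.4 and 26.4 RPKM to 1.21, 0.702 and 0.419 RPKM, and Nuf2, a kinetochore protein, fell by 4.11.

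Replication and repair genes were mostly below the threshold. Of 45 replication genes 7 rose and 2 fell. Gins3, of the replicative helicase, rose from 5.05, 3.75 and 4.86 RPKM to 53.3, 67.9 and 60.2 RPKM, and Rpa3, a subunit of the single-strand binding protein, fell by 2.59. Of 40 repair and checkpoint genes 4 rose and 3 fell. The checkpoint kinases parted: Chek2 rose from 0.31, 2.03 and 4.97 RPKM to 37.7, 62 and 50 RPKM, and Chek1 fell from 127, 101 and 74 RPKM to 5.52, 6.79 and 27.8 RPKM.

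Chromatin genes showed turnover of single members without a common direction. Of 33 genes for histone acetylation 8 rose and 8 fell, a balance that moved with the scaling, to 4 and 11 with median-ratio scaling and to 11 and 7 on nuclear reads. Hat1, which acetylates new histone H4, went from 10.3, 8.43 and 3.8 RPKM to 79.9, 119 and 134 RPKM, and Ing3, of the NuA4 complex, from 46.4, 39.6 and 49.3 RPKM to 0.546, 7.59 and 7.81 RPKM. Of 11 tested deacetylases 3 rose and 1 fell. Hdac1 went from 5.43, 1.55 and 8.33 RPKM to 52.2, 32.9 and 36.2 RPKM, and Sirt5, of the mitochondrion, fell by 2.91.

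Of 27 genes for histone methylation 5 rose and 7 fell, with Kdm3b, a demethylase of H3K9, at 3.01 and Ezh1, a methyltransferase of H3K27, at -2.47. Of 26 histone variants and chaperones 3 rose and 6 fell. H2afz, which encodes H2A.Z, rose from 128, 74.8 and 90 RPKM to 1279, 920 and 1040 RPKM, and Npm2, the oocyte nucleoplasmin that unpacks sperm chromatin, went from 542, 653 and 930 RPKM to 5.78, 4.91 and 19.5 RPKM.

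DNA methylation genes gave 1 riser and 3 fallers among 12. Zfp57, a zinc finger protein that keeps imprints, went from 170, 236 and 177 RPKM to 10.3, 3.03 and 2.94 RPKM, a change of -5.1 ± 0.5. Its corepressor Trim28 rose from 4.56, 7.51 and 5.14 RPKM to 27.5, 21 and 24.8 RPKM. Tet3, the maternal dioxygenase that oxidises 5-methylcytosine, fell by 3.96, and Uhrf1, the partner of Dnmt1, by 2.94.

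Imprinted genes went both ways. Of 36 canonical imprinted genes 19 were tested, 3 rose and 6 fell, beside 16.4% up and 20.1% down among all genes tested. Impact, a translational regulator, went from 2.47, 0.171 and 7.98 RPKM to 61.1, 111 and 47.8 RPKM. Of 12 genes imprinted by maternal H3K27me3, a mark that donor nuclei lack, 5 were tested, 2 rose and none fell. They were Bbx, at 1.73, 3.42 and 0.705 RPKM and then at 12.4, 11.6 and 8.4 RPKM, and Jade1.

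Glycolysis and pyruvate genes gave 4 risers and 5 fallers among 27, near the shares of all genes tested (16.4% up, 20.1% down). Ldhb, the lactate dehydrogenase subunit of the oocyte, went from 284, 609 and 428 RPKM to 9.61, 14.5 and 13.7 RPKM. Slc2a1, a glucose transporter, was at 13.6 to 17.6 RPKM and then at 0.0556 RPKM or less. Mpc2, of the mitochondrial pyruvate carrier, rose from 0.496, 6.12 and 6.15 RPKM to 28, 25.2 and 40.3 RPKM.

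Targets of p53 and genes of apoptosis gave 9 risers and 4 fallers among 25 in NTC. The counts were 9 and 4 among 25 in NTM and 9 and 4 among 22 in vivo. Of 24 tested for the difference from in vivo, 4 were more negative and 0 more positive in NTC. With the in vivo 8-cell libraries 0 of 25 were more negative and 1 more positive. Phlda3, a p53 target that restrains AKT, went from 17.8, 2.25 and 0.242 RPKM to 132, 478 and 467 RPKM, the second largest rise of the named genes at 6.2 ± 0.95 (adjusted p = 0.00154). The other risers were Ccng1, Sesn2, Zmat3, Bax, Pmaip1, Bad, Aen and Mcl1. Bax, a pore-forming effector, was at 0.652 RPKM or less and then at 9.28, 64.7 and 14.5 RPKM. Besides Bcl2l10, Bik, Bcl2l1 and Mdm4 fell. Cdkn1a, the best known p53 target, was at 14.2, 4.55 and 7.05 RPKM and then at 2.92, 22 and 38.6 RPKM in NTC. It did not pass the test there (limma adjusted p = 0.465). In vivo Cdkn1a rose by 4.96, to between 45.6 and 49 RPKM, and its difference of -4.16 passed (limma adjusted p = 0.0178). Its level was 0.977 to 4.81 RPKM in the in vivo 8-cell libraries. In NTM Cdkn1a rose by 3.83, to between 43.3 and 59.5 RPKM (limma adjusted p = 0.00408). The difference between its NTC and NTM changes did not pass (limma adjusted p = 0.792).

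The largest rises among the named genes were those of genes with varied roles. Stmn3, of the stathmin family of microtubule regulators, went from 4.92, 0.0736 and 0.166 RPKM to 286, 62.5 and 179 RPKM (6.25 ± 0.8). Ctsc, a lysosomal protease, rose by 5.97, Pdxk, pyridoxal kinase, by 5.87 and Slc5a6, a transporter of biotin and pantothenate, by 5.82. Cd63, a tetraspanin of late endosomes, was the most even among them, from 9.11, 12.8 and 15 RPKM to 861, 729 and 637 RPKM (5.82 ± 0.33).

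Markers of the donor cells were low. The 30 cumulus genes summed to 10.5 to 23.9 RPKM at the NTC 2-cell and 58.1 to 94 RPKM at the NTC 4-cell stage, against 1761 to 2845 RPKM in cumulus cells, and 11 of them were at 0 in all 6 NTC libraries. Of the 8 tested 2 rose, Amhr2 from 0.296 RPKM or less to 4.66, 33.2 and 55.7 RPKM and the gap junction gene Gja1 from 1.58 to 3.44 RPKM to between 20.7 and 52.4 RPKM. Both also rose in vivo, by 4.14 and 8.12. Of 25 fibroblast genes 2 were tested and Mmp2, a matrix protease, fell, from 20.3, 24.3 and 24.7 RPKM to at most 0.0345 RPKM.

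The same stages of in vivo embryos ask which of these changes a fertilized embryo also makes. Of 12995 genes tested in vivo 31.4% rose and 20.8% fell. Of the 10702 genes tested in both embryo types, 1976 rose in NTC, of which 1538 also rose and 17 fell in vivo, and 2433 fell in NTC, of which 1667 also fell and 36 rose in vivo. The risers shared are 1538 of the 3427 in vivo and the fallers 1667 of the 2595 in vivo. Across these genes the changes correlated at r = 0.784, given as a description, since genes are not replicates.

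The difference between the NTC and the in vivo change passed the test for 2.38% of 13221 genes in the positive and 12% in the negative direction. A negative value means less rise or more fall in NTC. The median difference of all genes was -0.41, and differences are to be read against it. It was -0.2 on nuclear reads, where 431 were more positive and 1171 more negative, and -0.17 with median-ratio scaling. Mitochondrial reads took 5.68% to 8.87% of the in vivo 4-cell and 31.6% to 34.7% of the NTC 4-cell libraries. With the 241 genes that stood apart left out, 298 were more positive and 1266 more negative in NTC. With in vivo 8-cell in place of in vivo 4-cell libraries 104 were more positive and 45 more negative. That replacement changes the libraries and the stage together, and their parts cannot be told apart.

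**Figure D4:**
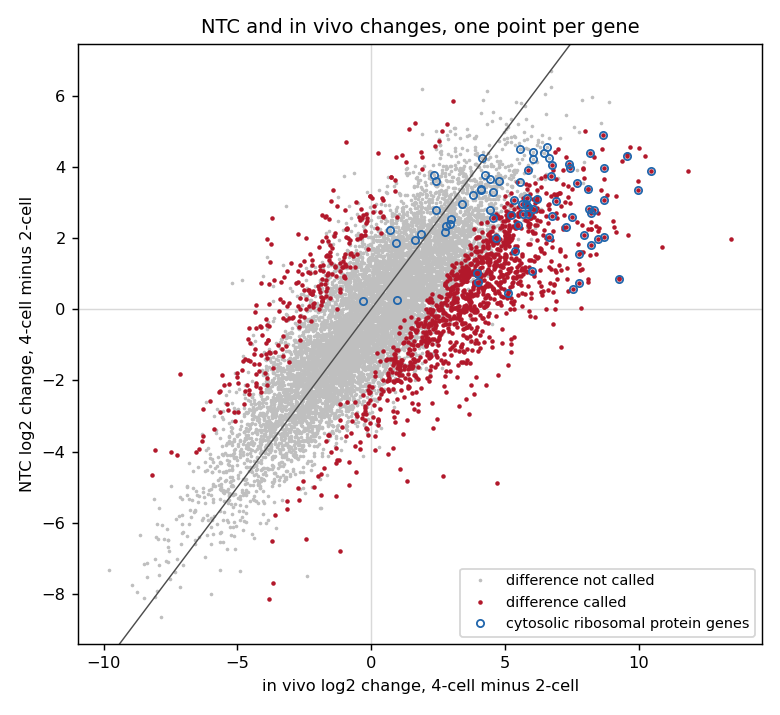
Log2 change from the 2-cell to the 4-cell stage in NTC (vertical) against in vivo embryos (horizontal), 1 point per gene, with the line of equal change; genes whose difference was called are red and cytosolic ribosomal protein genes circled. Called genes lie mostly below the line, and 52 of 82 ribosomal protein genes were called more negative.

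In ribosomal protein genes the median change was 5.85 over 83 tested in vivo and 2.84 over 78 tested in NTC. For the difference, 52 of 82 were called more negative in NTC. With the in vivo 8-cell libraries 5 of 82 were. Summed levels were 35868 to 38346 RPKM in vivo and 13919 to 15088 RPKM in NTC at the 4-cell stage, and 27484 to 28441 RPKM in vivo and 14789 to 18414 RPKM in NTC at the 8-cell stage. NTC embryos lay below in vivo embryos at both stages without overlap. Rpl7 was at 422 to 551 RPKM in the in vivo 4-cell and at 123 to 202 RPKM in the in vivo 8-cell libraries, and its difference of -3.77 ± 0.5 (adjusted p = 0.000397) became -2.24 (adjusted p = 0.0898). In nuclear respiratory chain genes 41 of 74 were more negative in NTC, and none of 69 with the in vivo 8-cell libraries.

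The 5 most negative differences were those of Mt1, Uqcr10, Rps29, Hist1h2ap and Hist1h4d, all far higher in the in vivo 4-cell than in the in vivo 8-cell libraries. Uqcr10, a subunit of complex III, was at 2.87, 5.35 and 3.67 RPKM in the NTC 4-cell, at 2100 to 2361 RPKM in the in vivo 4-cell and at 2.66 to 11.1 RPKM in the in vivo 8-cell libraries. Rps29, Hist1h2ap and Hist1h4d had the same order, with 544 to 689, 317 to 1248 and 223 to 426 RPKM in the in vivo 4-cell libraries against 5.95, 4.1 and 0 RPKM at most in the in vivo 8-cell ones. Mt1 was at 49.1, 12.7 and 34.1 RPKM in the NTC 4-cell libraries. By exon length, 15.9% of the 1675 tested genes of up to 1000 nt were more negative, 16.8% of the 3337 up to 2500 nt, 12.4% of the 2939 up to 4000 nt and 7.37% of the 5266 above that. More positive were 1.61%, 2.7%, 2.48% and 2.35% in the same order.

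Of the named genes, 4 kept a called difference with the in vivo 8-cell libraries, all of them positive: Utp3, Arxes2, Rab21 and Zfp994. Rab21, an endosomal GTPase, went from 312, 363 and 501 RPKM to 53.1, 125 and 186 RPKM in NTC and from 377 to 593 RPKM to 2.95 RPKM or less in vivo. Its difference was 5.32 ± 0.62 (adjusted p = 0.000151) and 4.87 (adjusted p = 0.0106) with the in vivo 8-cell libraries, where it was at 1.46 to 6.01 RPKM. Utp3 rose more in NTC by 2.21, and by 3.04 with the in vivo 8-cell libraries.

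Zfp994, a zinc finger protein, was at 1.56, 0.566 and 0 RPKM in the NTC 2-cell but at 8.25 to 25.7 RPKM in the in vivo 2-cell libraries, and its log2 change was 0.74 in NTC and -4.11 in vivo. Its difference was 4.86. Levels were likewise lower in the NTC than in the in vivo 2-cell libraries for Duxf3, Zscan4d and Gm6502. These 3 members of the 2-cell burst were called among 41 tested. Their differences were 4.15 (limma adjusted p = 0.00694), 4.81 (0.0367) and 2.61 (0.0352). All 3 were too low in NTC for the test of its transition and entered this test through the in vivo libraries. Duxf3 was at 0.0314 RPKM or less and Gm6502 at 0 RPKM in every NTC library of both stages. The in vivo changes of the 3 genes were -4.18, -5.51 and -2.61, so the differences describe mainly the in vivo fall. With the in vivo 8-cell libraries 1 of 41 was called. Arxes2 and Kbtbd6 differed by 5.88 and 5.11.

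The mitochondrial genome gave 6 more positive and 2 more negative of 13 genes, and none of 12 with the in vivo 8-cell libraries. mt-Nd6 fell by 3.72 in vivo, to between 57.9 and 133 RPKM, and was at 2494 to 4475 RPKM in the in vivo 8-cell libraries. Dppa3 was at 8284 to 12402 RPKM in the in vivo 4-cell, at 90 to 132 RPKM in the in vivo 8-cell and at 17.8 to 47.9 RPKM in the NTC 4-cell libraries, and its difference was -7.83 (adjusted p = 1.32e-05).

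The comparison with NTM embryos asks whether the donor cell type, with the age, culture and sex tied to it, goes with another transition. Of 11742 genes tested in NTM 12.1% rose and 14.3% fell. For the difference between the changes, 687 of 12464 genes had an unadjusted p under 0.05. A share of 0.05 of the genes would reach that without any difference. The difference passed the test for 0.00802% of the 12464 genes, that is 1 gene. The gene was Gm10436, chosen after its values were seen, at 699, 952 and 916 RPKM and then 41.8, 34.6 and 29.7 RPKM in NTC and at 864, 1000 and 618 RPKM and then 0.546, 0.811 and 0.372 RPKM in NTM, a difference of 4.46 ± 0.57 (adjusted p = 0.0209). The median change was -4.09 in NTC and -4.76 in NTM for oocyte regulators and 2.84 and 3.3 for ribosomal protein genes. Each median is over the members tested in that embryo type, and these sets can differ. Other groups had medians of opposite sign. Genes of the 2-cell burst had -0.57 over 33 in NTC and 0.34 over 22 in NTM. Deacetylases had 0.82 over 11 and -0.36 over 14, and canonical imprinted genes -0.57 over 19 and 0.25 over 20. These differences between groups of genes were not tested, and the part of the differing members is not known. A difference that misses the threshold with 3 embryos in each group does not show that the transitions are alike.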

How the data were processed

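Single mouse embryos were sequenced as paired reads after poly(A) tailing and PCR without molecular identifiers, so counting limits cover counting error only. The authors deposited 1 table of RPKM values (reads scaled to exon length and library total) of 27238 genes in 60 libraries. Per the study's methods, redundant and low-quality reads were removed, reads were mapped with TopHat and counted with HTSeq; per the labels, Bowtie 0.12.2 and mm8 were used, and this discrepancy was not resolved. No spike-in rows were in the table. Symbols, biotypes and exon lengths came from GENCODE M21 (GRCm38), sequences from RefSeq. Whole reads and depths were recovered from the RPKM steps of low values.

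Since the table holds RPKM, limma 3.58.1 (R 4.3.3; trended eBayes) was run on log2(RPKM + 1) for genes with a mean of at least 0.5 RPKM in the libraries of the fit, with Benjamini-Hochberg adjustment over all genes tested; calls needed an adjusted p under 0.05 and a log2 change of 1 or more in size. Differences between transitions were interaction terms over 12 libraries. Replicates are single embryos, and p-values weigh a difference of means against the spread between embryos of a group, moderated across genes. The transfer session and the females behind each embryo are not given, so whether that spread covers them is not known. The alternatives were pseudocount 0.1, no filter, median-ratio scaling, nuclear reads only, 1 fit over 20 groups, a replicate block, no fold threshold, thinned reads, and each library left out. The 2 alternatives for the in vivo 4-cell libraries were chosen after seeing the data, as were the genes named outside the rule below.

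Named genes were, among called protein-coding genes with non-overlapping stages, the 8 largest rises and falls, the extreme called member of each list in each direction, and the 5 largest differences from in vivo in each direction. The lists and the rule were chosen with earlier results of these data known.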

Additional observations from a re-analysis of the deposited data

Results flagged for a closer look

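Differences between the NTC and the in vivo change passed the test for 1895 genes and between the NTC and the NTM change for 1 gene, Gm10436 (4.46, NTC minus NTM, log2). Each difference below is the NTC log2 change minus the in vivo log2 change, and all were flagged because the changes differed between embryo types by the interaction test. More negative in NTC were Obox8 (-5.21), Ascl2 (-2.69), Rpl7 (-3.77), Snrnp27 (-2.78), Cdc25b (-3.16), Hdac1 (-3.69), Trim28 (-2.25) and Hspa2 (-3.5), and, with the largest sizes, Mt1 (-11.5), Uqcr10 (-9.15), Rps29 (-8.42), Hist1h2ap (-8.4) and Hist1h4d (-8.16). Ascl2 was at 0.566 RPKM or less in the in vivo 2-cell and at 0 RPKM in the in vivo 4-cell libraries. Its difference therefore describes mainly the NTC change of -3.12. More positive were mt-Nd6 (6.29), Utp3 (2.21), Arxes2 (5.88), Rab21 (5.32), Kbtbd6 (5.11) and Zfp994 (4.86).

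With in vivo 8-cell in place of in vivo 4-cell libraries, the differences of Utp3 (3.04), Arxes2 (5.67), Rab21 (4.87) and Zfp994 (4.95) still passed, those of Rpl7 (-2.24), Mt1 (-3.26), Uqcr10 (-0.7), Hdac1 (-0.69) and mt-Nd6 (1.03) did not, and Hist1h4d could not be tested.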

How the results depend on the processing

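The count of genes changed from the NTC 2-cell to the 4-cell stage lay between 3576 and 5734 under the other settings and between 3473 and 4079 with 1 library left out, and no named gene changed direction. The replicate numbers did not pair the libraries: same-numbered deviations correlated at 0.00736, 0.0139 and 0.0123, and with a replicate block 4399 genes were called. With the replicate block the NTC minus in vivo difference passed for 1318 genes, against 1895 without it. It was more positive for 193 genes, against 314, and more negative for 1125, against 1581. The NTC minus NTM difference passed for 0 genes with the block.

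The NTC minus in vivo difference passed for 1457 to 2313 genes under the other scalings, filters, pseudocount, thinning and the fit over all groups, and for 1391 (without the second in vivo 4-cell library) to 2023 genes with 1 library left out. Of the calls 16.6% were positive, 25.7% with median-ratio scaling and 26.9% on nuclear reads only. With 1 library left out the more positive genes numbered 192 (without the second in vivo 4-cell library) to 432 (without the third in vivo 2-cell library). With in vivo 8-cell in place of in vivo 4-cell libraries 149 genes passed, 104 more positive and 45 more negative, and Obox8 (1.83) and Cdc25b (0.73) changed sign; the cause was not tested. One fit over all 20 groups gave 83 genes for NTC minus NTM, 33 more positive and 50 more negative, and leaving out 1 library gave 0 to 3 genes, 0 to 2 more positive and 0 to 1 more negative. Genes under about 3 reads were not resolved at this depth.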

Other observations

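Long noncoding RNAs fell more often than they rose: of 399 lincRNAs tested in NTC, 115 fell and 19 rose, with a median log2 change of -1.08, against -0.11 for 10712 protein-coding genes. Of 221 antisense genes 39 fell and 13 rose; whether the reads were counted by strand is not given in the sources used here, so antisense genes and their partners cannot be told apart. At 0 in every NTC 2-cell library and at 1 RPKM or more in every 4-cell library were 76 genes, 56 of them protein-coding, and the reverse held for 372 genes, 250 of them protein-coding. In the fifth of genes with the longest exons 11.1% rose and 24.9% fell.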
